A study of Rattus norvegicus with 12 samples.

Results

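The pyruvate dehydrogenase complex, its kinases and its phosphatases were followed in heart muscle cells exposed to the plasticizer DEHP, di(2-ethylhexyl) phthalate. Members were the probe sets of the deposited array table whose platform annotation gives exactly 1 gene symbol, equal to a listed gene or an older name of it. All 10 listed genes were found, on 12 of 27342 probe sets and among 14324 named genes: the 4 kinases Pdk1, Pdk2, Pdk3 and Pdk4, the 2 phosphatases Pdp1 and Pdp2, and the 4 subunits Pdha1, Pdhb, Dlat and Pdhx. The cells came from hearts of Sprague-Dawley pups aged 2 days, all of a single litter, and were plated on laminated coverslips and cultured for 3 days before treatment. The 6 DEHP cultures then received 50 µg/mL DEHP in 0.1% DMSO for 3 days, and the 6 control cultures received 0.1% DMSO alone for the same time. The labels call the cultures of a group biological replicates, so every test here measures the spread between cultures of 1 litter. RNA was taken from whole monolayers, where fewer cells of a type and less RNA per cell cannot be told apart.

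The complex sits in the mitochondrial matrix and turns pyruvate into acetyl-CoA, which makes it the gate between glycolysis and the tricarboxylic acid cycle. The kinases close this gate by phosphorylating the alpha subunit of its first enzyme, encoded by Pdha1, and the phosphatases open it again. In heart muscle, which can burn fatty acids or glucose, Pdk2 and Pdk4 are well-known kinases of the complex, and Pdk4 is a classic target of fasting, fatty acids and the nuclear receptor PPAR alpha.

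Each deposited value is the ratio of a probe set on 1 array to the median of that probe set over all 12 arrays, and it is given here as a log2 ratio. The values therefore hold differences between cultures but no expression level, so they cannot say which kinase was the most abundant, nor whether a marker of heart muscle was present at all. DEHP was compared with control by limma over all probe sets, each test being two-sided and p adjusted by Benjamini-Hochberg, and a probe set passed at an adjusted p under 0.05. Log2 folds are DEHP over control, ± SE from that fit, with 6 arrays in each group.

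DEHP raised 2 of the 4 kinases and 2 of the 4 subunits, and neither phosphatase passed. Pdk4 was 10.8-fold higher (log2 fold 3.43 ± 0.06) and Pdk2 was 1.82-fold higher (0.86 ± 0.08). Dlat was 1.298-fold higher (0.38 ± 0.09) and Pdhx 1.19-fold higher (0.25 ± 0.05). Of the 10 genes, 4 passed as higher, 0 as lower and 6 did not pass. Over all 14324 named genes 24.6% passed, 14.4% as higher and 10.2% as lower, and over all 27342 probe sets 18.3% passed, 10.5% as higher and 7.82% as lower. Against a minimum fold of 1.2, which 4.32% of all probe sets passed, only Pdk4 and Pdk2 of the members passed. At an adjusted p under 0.01, which 11.8% of all probe sets passed, 3 members were, Pdk4, Pdk2 and Pdhx. The median log2 fold was 0.08 over the 10 members and −0.02 over all named genes.

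**Figure D1:**
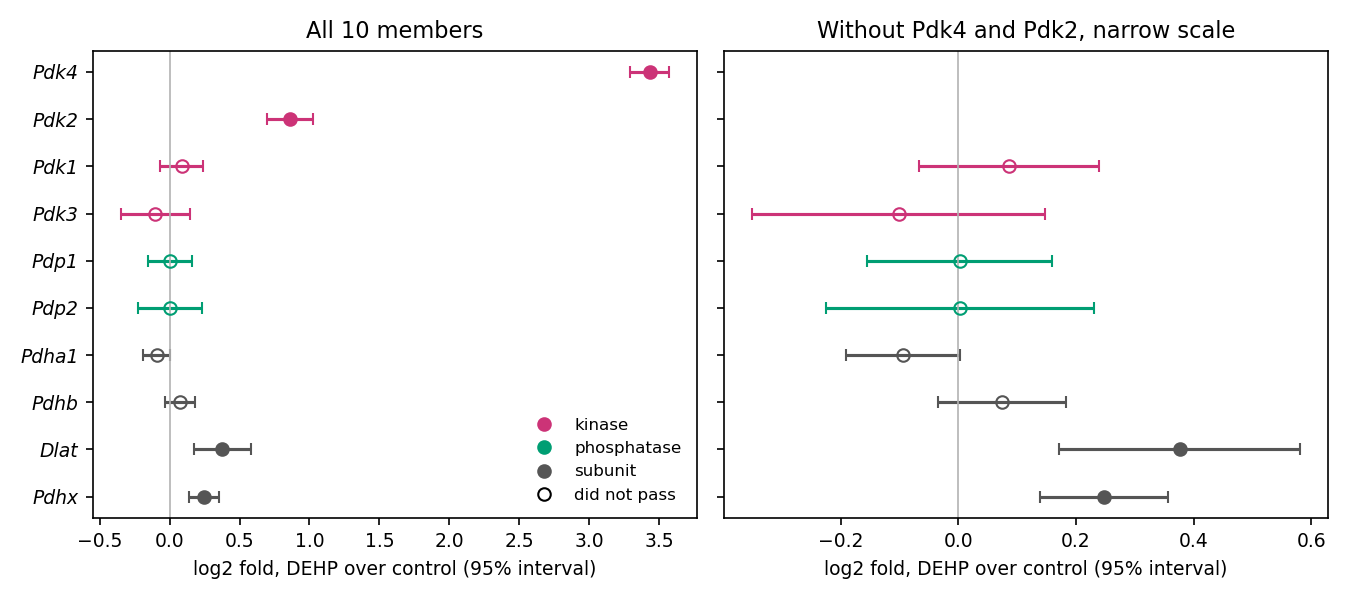
Log2 fold of DEHP over control for each member, with its 95% interval from limma (n = 6 arrays per group). Points are coloured by role, open points did not pass, and the right panel repeats the 8 members other than Pdk4 and Pdk2 on a narrow scale. Pdk4 at 3.43 and Pdk2 at 0.86 lie to the right of all other members, and the intervals of Pdk1, Pdk3, Pdp1, Pdp2, Pdha1 and Pdhb include 0.

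The sequences just upstream of the transcription start are given for the 4 kinase genes, of which 2 passed as higher and 2 did not pass. That of Dlat is given because it is the only member window with the nuclear receptor core motif. Any part of these sequences in the folds was not tested. They come from RefSeq (rat build GRCr8), whose table held windows for 8 of the 10 members. Capitals mark matches on either strand to AGGTCA (the core motif of nuclear receptors), GTAAACA (FOXO factors), ACGTG (the core of hypoxia response elements) and GGGCGG (Sp factors). Pdk4 lies on the minus strand (chr4:34568330-34568579), as do Pdk2 (chr10:80483913-80484162), Pdk3 (chrX:62547372-62547621) and Dlat (chr8:59900819-59901068), while Pdk1 lies on the plus strand (chr3:77113264-77113513).
Pdk4: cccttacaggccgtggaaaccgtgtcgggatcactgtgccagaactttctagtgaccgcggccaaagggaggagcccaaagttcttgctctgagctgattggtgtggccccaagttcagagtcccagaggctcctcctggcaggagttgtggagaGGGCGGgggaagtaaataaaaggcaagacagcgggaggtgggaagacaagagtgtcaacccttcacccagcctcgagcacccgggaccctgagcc
Pdk2: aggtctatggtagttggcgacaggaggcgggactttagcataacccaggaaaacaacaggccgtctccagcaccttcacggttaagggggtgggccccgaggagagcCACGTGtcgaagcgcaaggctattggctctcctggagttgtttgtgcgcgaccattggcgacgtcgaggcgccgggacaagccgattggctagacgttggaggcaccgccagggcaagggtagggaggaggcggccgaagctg
Pdk1: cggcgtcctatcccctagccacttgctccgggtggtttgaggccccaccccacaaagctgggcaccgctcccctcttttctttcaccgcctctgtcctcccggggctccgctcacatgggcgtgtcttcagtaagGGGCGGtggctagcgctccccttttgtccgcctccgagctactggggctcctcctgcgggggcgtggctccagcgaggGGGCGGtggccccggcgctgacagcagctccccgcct
Pdk3: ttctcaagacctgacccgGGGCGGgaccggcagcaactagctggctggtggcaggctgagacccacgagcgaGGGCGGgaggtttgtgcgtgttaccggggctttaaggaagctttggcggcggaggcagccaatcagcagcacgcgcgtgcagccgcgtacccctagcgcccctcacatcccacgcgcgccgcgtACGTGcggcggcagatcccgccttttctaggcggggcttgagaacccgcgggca
Dlat: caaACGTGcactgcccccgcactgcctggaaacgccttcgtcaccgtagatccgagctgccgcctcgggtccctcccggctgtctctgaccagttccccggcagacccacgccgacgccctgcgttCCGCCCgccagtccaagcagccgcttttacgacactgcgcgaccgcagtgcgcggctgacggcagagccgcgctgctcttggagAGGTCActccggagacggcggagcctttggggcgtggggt

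The Pdk4 window held 1 GGGCGG, whose first base was 95 bases before the start, and none of the other 3 motifs. The Pdk2 window held ACGTG on both strands, overlapping in the palindrome CACGTG, with first bases 142 and 143 before the start, and no other match. Pdk1 and Pdk3 each held GGGCGG at 2 places, and Pdk3 also held ACGTG. Of the 8 windows, 6 held GGGCGG, 4 ACGTG, 1 AGGTCA (Dlat) and 1 GTAAACA (Pdhb). Among all 33469 windows of the table, cut to the same length, the shares were 30.5%, 16.6%, 14.1% and 3.21% in that order. A match describes the letters only, and the arrays measured no binding. Only exact matches in the 250 bases before the start were sought. A window without a match therefore says nothing of sites further upstream or spelled otherwise.

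Pdk4 had the highest log2 fold and the smallest p of all 27342 probe sets. In controls its log2 ratio was −1.99 at the lowest, −1.77 at the median and −1.55 at the highest. Under DEHP it was 1.55 at the lowest, 1.68 at the median and 1.74 at the highest. Every DEHP culture lay above every control culture, with a gap of 3.10 between the groups, against SDs of 0.14 in controls and 0.08 under DEHP. The log2 fold of 3.43 had a 95% interval of 3.296 to 3.57 and an adjusted limma p of 1.1e-11. On the linear scale as deposited, the control ratios ran from 0.251 to 0.341 and the DEHP ratios from 2.93 to 3.34.

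Pdk2, a kinase found in most tissues, moved in the same direction by a smaller amount. Its log2 ratio in controls was −0.699 at the lowest, −0.46 at the median and −0.24 at the highest. Under DEHP the corresponding values were 0.24, 0.41 and 0.52. The groups did not overlap, which held for 16.9% of all named genes, 12.2% of all probe sets and for 3 of the 10 members. The adjusted limma p was 4.45e-06, and its log2 fold ranked 207 from the top of all probe sets.

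Pdk1, a kinase known as a target of hypoxia-inducible factor, did not pass (log2 fold 0.09 ± 0.07, 95% interval −0.07 to 0.24, limma adjusted p = 0.47). Its log2 ratio ran from −0.28 to 0.24 in controls, with a median of −0.07, and from −0.02 to 0.09 under DEHP, with a median of 0.03. The control cultures thus spanned the whole range of the DEHP cultures.

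Pdk3 did not pass with all 12 arrays (−0.10 ± 0.12, 95% interval −0.35 to 0.15, limma adjusted p = 0.61). In controls its log2 ratio was −0.51 at the lowest, 0.13 at the median and 0.26 at the highest, and under DEHP −0.22, −0.09 and 0.12. Control replicate 5 alone gave the lowest control value, and the next lowest control was −0.02. Without that array the log2 fold was −0.21 and passed as lower (limma adjusted p = 0.041). Without both control replicate 5 and DEHP replicate 6 it was −0.20 and did not pass (adjusted p = 0.070).

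**Figure D2:**
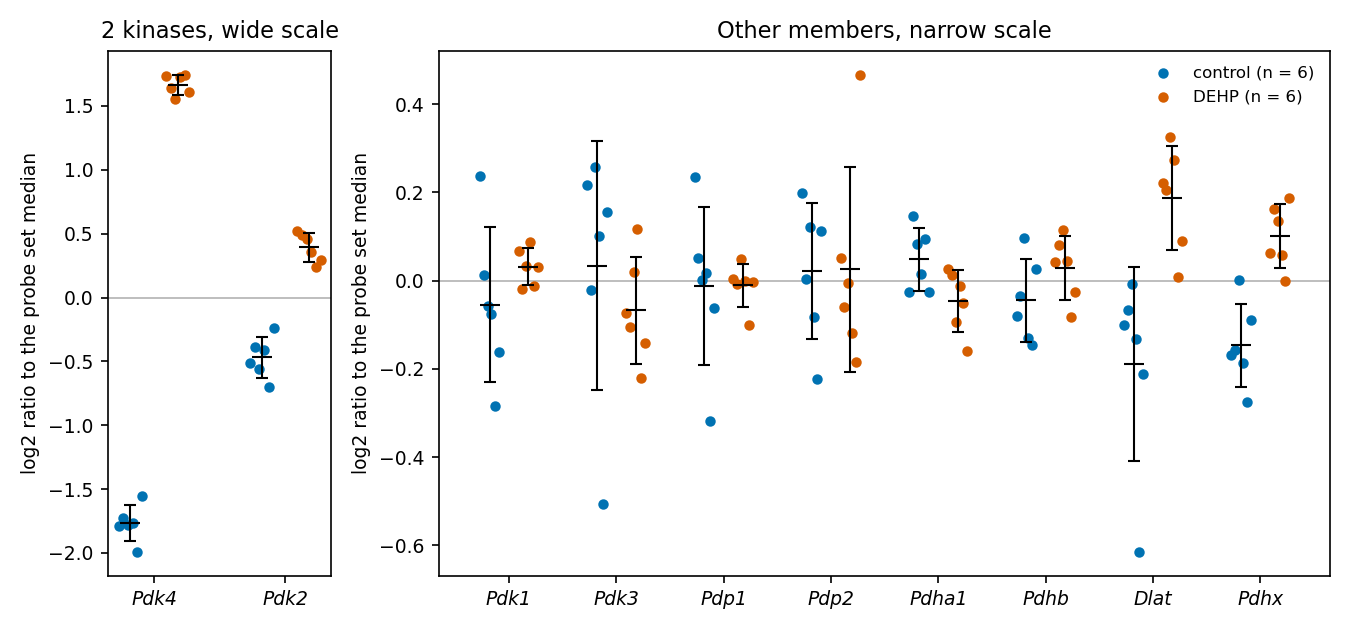
Log2 ratio of each array to the probe set median, for each member in 6 control and 6 DEHP arrays; points are arrays, and bars are the mean ± SD. Pdk4 and Pdk2 are on a wide scale and the other 8 genes on a narrow scale. The groups lie apart for Pdk4 and Pdk2 and, by a small gap, for Dlat, and control replicate 5 is the low point of Pdk3 at −0.51 and of Dlat at −0.61.

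The kinases were then set against each other within each array, because a call in 1 kinase and not in another is no test of their difference. The difference of 2 log2 ratios was tested by an exact two-sided permutation over the 924 splits of 12 arrays into 6 and 6, for 9 pairs of members. Pdk4 rose more than Pdk2 by 2.57 on the log2 scale (95% interval 2.43 to 2.72), or 5.95-fold. It rose more than Pdk1 by 3.35 (3.16 to 3.53) and more than Pdk3 by 3.54 (3.28 to 3.77). Pdk2 rose more than Pdk1 by 0.78 (0.557 to 1.0009), and the log2 fold of Pdk3 was below that of Pdk2 by 0.96 (pair value −0.96, interval −1.2002 to −0.72). Each of these 5 pairs had an exact permutation p of 0.00216, the smallest that these splits allow, and 0.0039 after adjustment over the 9 pairs. All 5 also passed in 17 other settings. Their adjusted exact p was highest, at 0.047, with arrays paired by replicate number. There the signs of 6 paired differences were flipped in every way, and the exact p before adjustment was the smallest possible.

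Pdk3 and Pdk1 were not told apart over all arrays, with a difference of −0.19 (95% interval −0.402 to 0.04, exact permutation p = 0.093, adjusted p = 0.12). Without control replicate 5 it was −0.25 (adjusted exact p = 0.029), and after quantile normalization −0.24 (adjusted exact p = 0.045). Because each probe set can answer to its RNA with its own steepness, these differences compare measured folds of probe sets, not molecules.

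The Pdk4 and Pdk2 values kept a nearly fixed distance in controls. Their difference there ran only from −1.36 to −1.22 (−1.298 ± 0.05, SD, n = 6), although each gene spread more on its own. Control replicate 5 was the lowest control for both genes and control replicate 6 the highest. Under DEHP the difference ran from 1.09 to 1.503 (1.27 ± 0.15, SD, n = 6), a wider range.

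**Figure D3:**
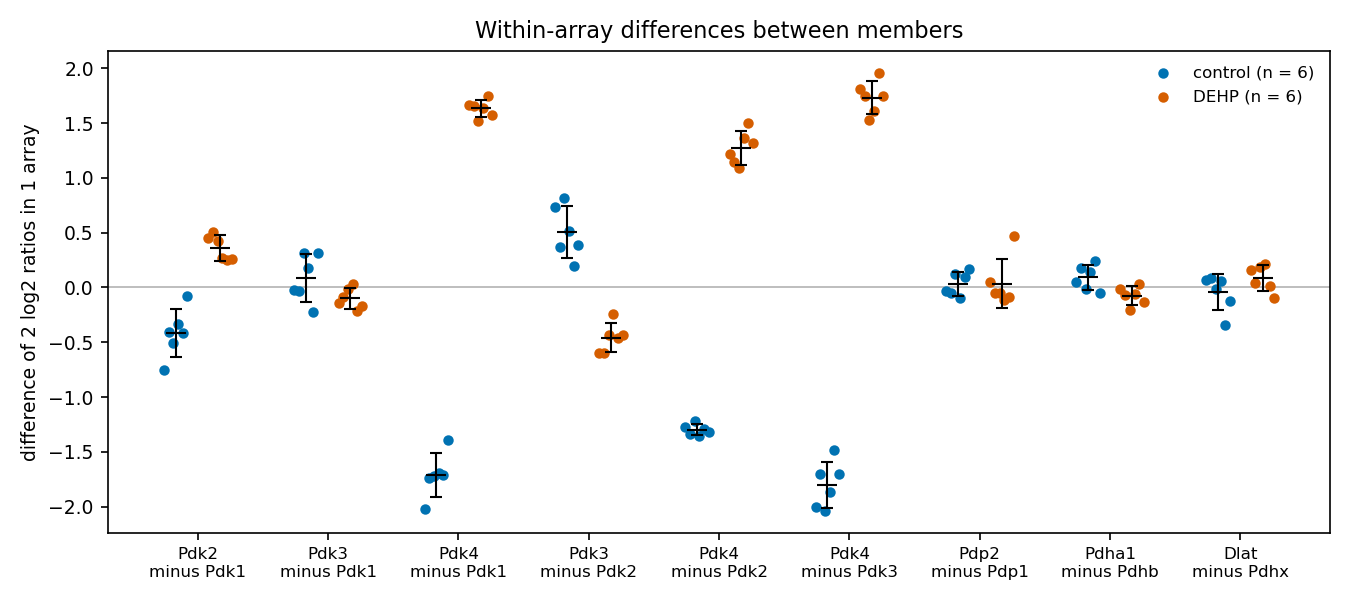
Difference of 2 members' log2 ratios within each array, for the 9 pairs compared, in 6 control and 6 DEHP arrays; points are arrays and bars are the mean ± SD. The 3 pairs with Pdk4 show the widest separation, with differences of 2.57 to 3.54 between groups, and the pair of phosphatases shows none, at 0.0011.

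The phosphatases remove the inhibitory phosphates, and Pdp1, the calcium-stimulated form in muscle, had a log2 fold of 0.0025 ± 0.07 (95% interval −0.16 to 0.16, limma adjusted p = 0.99). Its log2 ratio ran from −0.32 to 0.24 in controls and from −0.10 to 0.05 under DEHP, with medians of 0.0087 and −0.0025. Pdp2 had a log2 fold of 0.0036 ± 0.105 (−0.22 to 0.23, limma adjusted p = 0.99). Its log2 ratio ran from −0.22 to 0.1996 in controls, with a median of 0.06, and from −0.18 to 0.47 under DEHP, with a median of −0.03. The highest Pdp2 value was that of DEHP replicate 6, and the other DEHP arrays lay at or below 0.05. In folds, the intervals allow a change of up to 1.12-fold upward or 1.11-fold downward for Pdp1, and 1.17-fold in either direction for Pdp2. The sign of both log2 folds changed with the settings, for Pdp1 from −0.06 to 0.05 and for Pdp2 from −0.13 to 0.05. The phosphatases were not told apart (difference 0.0011, 95% interval −0.19 to 0.23, exact permutation p = 0.998).

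Among the subunits, Dlat and Pdhx form the core of the complex. Dlat encodes the acetyltransferase, whose lipoyl arms also hold the kinases, and Pdhx encodes the protein that anchors dihydrolipoamide dehydrogenase to that core. In controls the log2 ratio of Dlat was −0.61 at the lowest, −0.12 at the median and −0.0085 at the highest, and under DEHP 0.0085, 0.21 and 0.33. The groups were apart by a gap of 0.02, and the adjusted limma p was 0.013. Control replicate 5 was again the lowest, and without it the log2 fold was 0.29 (limma adjusted p = 0.0034). Pdhx ran from −0.28 to 0.00095 in controls, with a median of −0.16, and from −0.00095 to 0.19 under DEHP, with a median of 0.0991. The groups overlapped by a small amount, as control replicate 3 (0.00095) lay above DEHP replicate 5 (−0.00095). The adjusted limma p was 0.0034. The folds of Dlat and Pdhx were not told apart (difference 0.13, 95% interval −0.05 to 0.32, exact permutation p = 0.16, adjusted p = 0.18).

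Pdha1 and Pdhb encode the alpha and beta chains of the pyruvate dehydrogenase enzyme itself, and neither passed. The log2 ratio of Pdha1 ran from −0.03 to 0.15 in controls, with a median of 0.05, and from −0.16 to 0.03 under DEHP, with a median of −0.03. Its log2 fold was −0.09 ± 0.04 (95% interval −0.19 to 0.0022, limma adjusted p = 0.19). Pdhb ran from −0.15 to 0.096 in controls, with a median of −0.06, and from −0.08 to 0.12 under DEHP, with a median of 0.04. Its log2 fold was 0.07 ± 0.05 (−0.04 to 0.18, limma adjusted p = 0.38). The partner chains did differ from each other within arrays, with Pdha1 lower relative to Pdhb under DEHP by 0.17 (pair value −0.17, 95% interval −0.2997 to −0.04, exact permutation p = 0.017, adjusted p = 0.026). Without DEHP replicate 2, 3 or 6 the adjusted exact p was 0.052, 0.065 or 0.062. Without control replicate 5 and DEHP replicate 6 together the difference was −0.13 and did not pass either (adjusted exact p = 0.082).

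Pdha1 and Dlat each had 2 probe sets, which gave nearly the same values. Their log2 ratios differed by at most 0.04 in any array for Pdha1 and 0.06 for Dlat, and correlated across the 12 arrays with r = 0.987 and 0.994. RefSeq lists a pseudogene of each, Pdha1l1 and Dlat-ps1. Probe set numbers of the array mostly follow chromosomes, since 93.02% of neighbours in number were genes of the same chromosome. Of the 10 neighbours of the lower-numbered Pdha1 probe set 0 were on the Pdha1 chromosome, against 9 for the higher-numbered one, and for Dlat the counts were 2 and 10. Whether the lower-numbered ones read the pseudogenes as well was not tested, and reads of gene and copy are uncertain in both. The second Dlat probe set had a log2 fold of 0.36 ± 0.102 (limma adjusted p = 0.025). It lost its call without control replicate 6 or DEHP replicate 1, 3 or 4 (adjusted p up to 0.060).

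By role and averaged in each array, the kinases without Pdk4 ran from −0.497 to −0.02 in controls and from 0.00096 to 0.19 under DEHP. The phosphatases ran from −0.27 to 0.22 in controls and from −0.14 to 0.23 under DEHP. The subunits ran from −0.24 to 0.04 in controls and from −0.03 to 0.12 under DEHP. The averages of kinases did not overlap between groups, while those of phosphatases and of subunits did. Among the kinases other than Pdk4, Pdk2 alone passed and lay apart between groups, and Pdk1 and Pdk3 overlapped.

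Control replicate 5 was the lowest control in 9 of the 10 members, Pdha1 being the exception. Over all probe sets it was the lowest control in 33.4% and the highest in 39.6%. DEHP replicate 5 was the lowest DEHP culture in 7 of the 10 members, and in 24.7% of all probe sets. Control replicate 5 and DEHP replicate 6 had the widest spread of log2 ratios over all probe sets, their SDs being 0.37 and 0.27, where the remaining 10 arrays had 0.15 to 0.19. The values of Pdk3 and Dlat without control replicate 5 are given above. Those fits keep DEHP replicate 5, the lowest DEHP culture for both genes, and a fit without both arrays was not run.

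**Figure D4:**
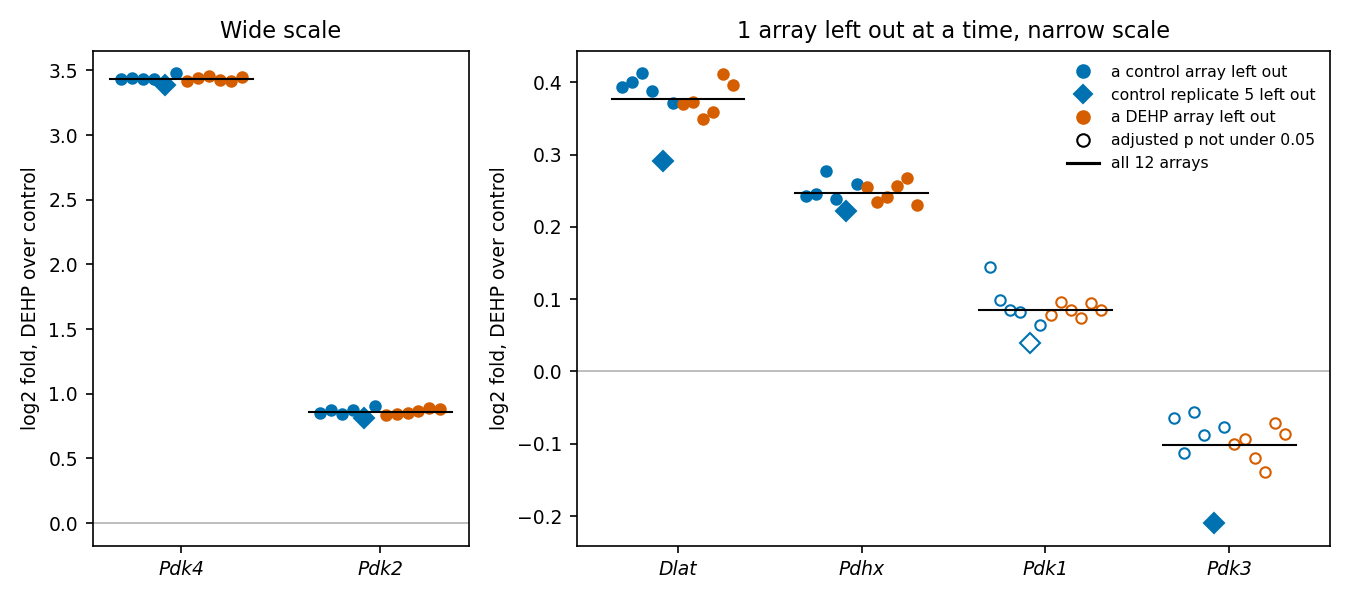
Log2 fold of DEHP over control with each of the 12 arrays left out in turn, for the 4 members that passed and for Pdk1 and Pdk3; each point is a fit without 1 array, the diamond is the fit without control replicate 5, the line is the fit of all arrays, and open symbols did not pass. Leaving out control replicate 5 lowers Dlat to 0.29 and Pdk3 to −0.21, and Pdk4 stays between 3.39 and 3.48.

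Genes that feed pyruvate to the complex or use it otherwise went both ways. Of 15 such genes, 4 rose, 4 fell and 7 did not pass, with a median log2 fold of −0.0075. Over all named genes, 14.4% passed as higher and 10.2% as lower. Slc16a1, the monocarboxylate transporter that carries lactate and pyruvate across the cell membrane, rose 2.04-fold (1.03 ± 0.06, limma adjusted p = 1.05e-07), from −0.55 ± 0.13 in controls to 0.48 ± 0.06 under DEHP (SD, n = 6 each). Ldhb, the heart form of lactate dehydrogenase, rose by 0.61 ± 0.06 and Pc, the pyruvate carboxylase, by 0.40 ± 0.06. Me1, the malic enzyme of the cytosol, fell (−0.36 ± 0.07). Ldha, the other lactate dehydrogenase gene of the list, fell as well (−0.23 ± 0.05), as did the pyruvate kinase gene Pkm (−0.18 ± 0.04). Both were named after their values were seen. The mitochondrial pyruvate carrier, named after its values were seen, had Mpc1 at −0.08 ± 0.06, which did not pass, and Mpc2 at −0.18 ± 0.05 (limma adjusted p = 0.036). Mpc2 lost its call in 8 of 19 other settings, each of them with a single array left out, where the adjusted p reached 0.075.

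The complex shares dihydrolipoamide dehydrogenase with related complexes and needs thiamine and lipoate. Dld, which encodes that shared enzyme, was at 0.06 ± 0.06 and did not pass (limma adjusted p = 0.56, named after its values were seen). Of 8 measured genes of this shared enzyme, the phosphatase regulator and cofactor supply, 4 rose, 0 fell and 4 did not pass (median log2 fold 0.23). The shares over all named genes were 14.4% higher and 10.2% lower. Pdpr, the regulatory subunit of the phosphatase, rose (0.37 ± 0.09, limma adjusted p = 0.0097). Neither catalytic form passed, but the fold of Pdpr was not tested against theirs. The log2 ratio of Pdpr ran from −0.65 to −0.08 in controls and from 0.08 to 0.27 under DEHP. Slc5a6, a carrier of biotin, pantothenate and lipoate, rose by 0.73 ± 0.12. Slc19a2, a thiamine transporter (0.30 ± 0.09), and Lias, the lipoate synthase (0.48 ± 0.15), also passed, but lost their calls in 6 and 7 of 19 settings, each with 1 array left out. The count of rises was 2 without control replicate 2 or 4 or DEHP replicate 1, 4 or 6, and 1 gene fell without control replicate 5.

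The next list held related 2-oxo acid dehydrogenase complexes, built on the same plan, with the kinase and phosphatase of the branched chain complex. Of its 8 measured genes 7 rose and 0 fell, with a median log2 fold of 0.34, where 14.4% of all named genes passed as higher. Dbt, the counterpart of Dlat in branched chain amino acid breakdown, rose by 0.35 ± 0.04 (limma adjusted p = 0.00011), and its partner Bckdha by 0.38 ± 0.06. Ogdh (0.34 ± 0.06) and Ogdhl (0.30 ± 0.05), of the oxoglutarate complex and a related form, rose as well. The kinase of the branched chain complex, Bckdk, rose by 0.18 ± 0.05 and its phosphatase, Ppm1k, did not pass (0.0036 ± 0.05), both named after their values were seen. The difference between Bckdk and Ppm1k was not tested.

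**Figure D5:**
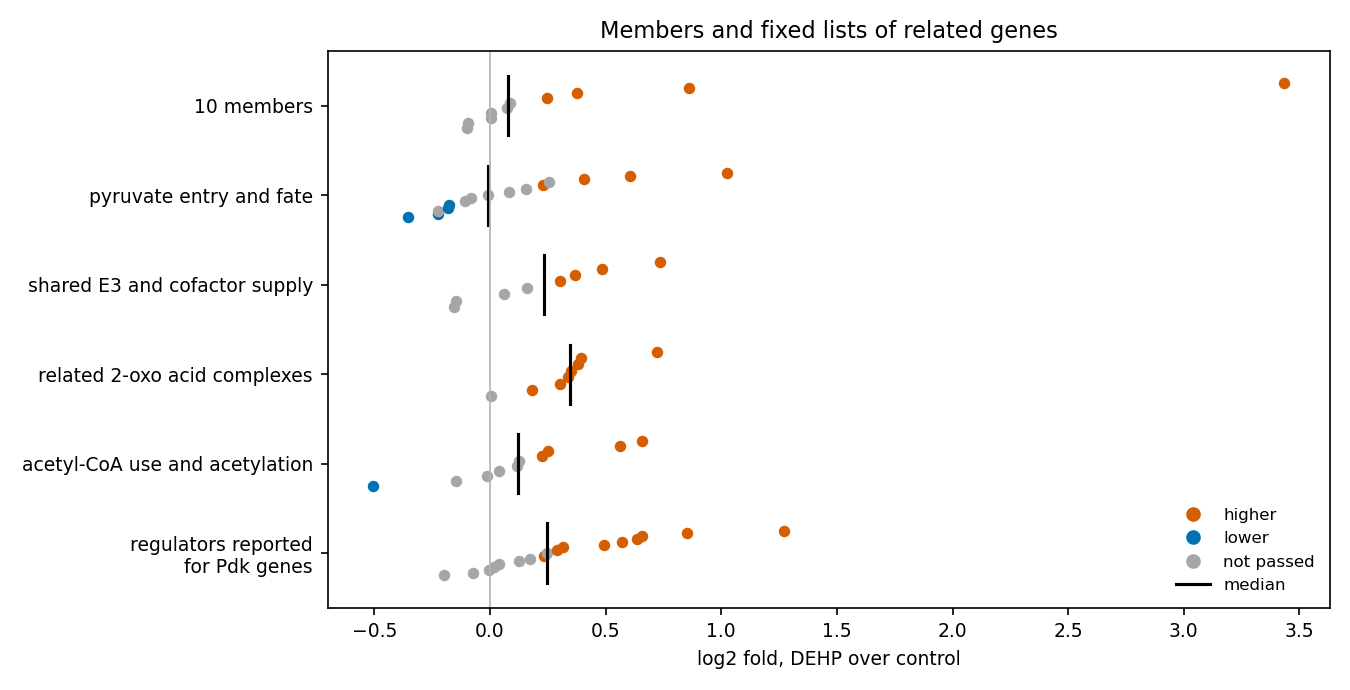
Log2 fold of DEHP over control for the 10 members and for each gene of the 5 lists of related genes; points are genes, coloured by whether they passed as higher or lower, and the line is the median. Pdk4 at 3.43 lies beyond every gene of the lists, of which Ppara at 1.27 is the highest. In the list of related complexes with the branched chain kinase and phosphatase, 7 of 8 genes are called higher.

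Genes that use or move acetyl groups gave 4 rises and 1 fall among 10 measured, while 5 did not pass (median log2 fold 0.12). Of all named genes, 14.4% passed as higher and 10.2% as lower. Slc25a20, the carnitine-acylcarnitine carrier of the inner membrane, rose by 0.66 ± 0.07. Crat, the carnitine acetyltransferase that can take up acetyl groups from acetyl-CoA, rose by 0.56 ± 0.06, and Sirt5, a mitochondrial deacylase, by 0.25 ± 0.05. Acly, which makes acetyl-CoA from citrate in the cytosol, fell (−0.51 ± 0.04, limma adjusted p = 4.45e-06).

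Among 17 transcriptional regulators reported for Pdk genes, 9 rose, 0 fell and 8 did not pass (median log2 fold 0.24). Without control replicate 5 or DEHP replicate 6, 1 fell. The shares over all named genes were 14.4% higher and 10.2% lower. Ppara, the nuclear receptor of fatty acids, rose 2.42-fold (1.27 ± 0.08), from −0.64 ± 0.18 in controls to 0.63 ± 0.12 under DEHP (SD, n = 6 each). The coactivators Ppargc1a (0.85 ± 0.11) and Ppargc1b (0.66 ± 0.08) and the receptor Esrrg (0.64 ± 0.08) rose. So did Foxo1 (0.31 ± 0.07), a forkhead factor of fasting, and Hif1a (0.49 ± 0.08), the hypoxia-inducible factor. Ppard (0.13 ± 0.08), Pparg (0.02 ± 0.04) and Esrra (0.04 ± 0.06) did not pass, with adjusted limma p of 0.31, 0.81 and 0.73. All of these were transcripts, and the activity of the factors was not measured.

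Markers of other cell types were read in the same arrays, as far as single-symbol probe sets named them. Their counts stand beside shares of 14.4% higher and 10.2% lower over all named genes. All 8 measured smooth muscle and myofibroblast markers fell, with a list mean of 0.64 to 0.81 in controls and −1.22 to −0.62 under DEHP. Of 10 fibroblast markers 6 fell and 3 rose (means of 0.05 to 0.19 and −0.41 to −0.09). Of 8 endothelial markers 5 rose and 0 fell (−0.33 to 0.02 and −0.18 to 0.45). Of 10 leukocyte and macrophage markers 3 rose and 1 fell (−0.27 to 0.05 and −0.02 to 0.15), and of 6 adipocyte markers 1 rose and 0 fell (−0.17 to 0.16 and −0.06 to 0.17). Among 10 cardiomyocyte markers 4 rose and 2 fell (−0.26 to −0.00077 and −0.15 to 0.34). The myosin heavy chain Myh6 (1.67 ± 0.12), the calcium release channel Ryr2 (1.13 ± 0.099), Ttn (0.41 ± 0.11) and Actn2 (0.21 ± 0.06) rose, and Myh7 (−0.39 ± 0.11) and Actc1 (−0.22 ± 0.04) fell. Tnnt2 (−0.05 ± 0.05), Tnni3 (−0.29 ± 0.12), Pln (0.07 ± 0.07) and Mybpc3 (−0.02 ± 0.10) did not pass. Without control replicate 4 only 2 cardiomyocyte markers rose, and without control replicate 2, 3, 4 or 6 or DEHP replicate 1 only 1 fell. Without DEHP replicate 6, 2 leukocyte markers fell. The ratios hold no level, so no marker could be called present or at 0, and the part of these shifts in the member results was not tested.

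The genes whose log2 ratios were most like those of Pdk4 were found by Pearson correlation over the 12 arrays, among 14304 named genes. These were Parm1 (r = 0.995), Sema5a (r = 0.995), Igfbp5 (r = 0.990), Hsdl2 (r = 0.989) and Cxcl11 (r = 0.989). Their log2 folds were 1.55, 1.205, 2.57, 1.16 and 3.13, so the steep rise of Cxcl11, a chemokine gene, came nearest to that of Pdk4. The 12 arrays fall into 2 groups that share normalization, so r mostly reflects the step between groups and is given as a description.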

How the data were processed

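RMA, version not given, is the tool named by the submitters' processing notes; the genome build is not given in the sources used here. The values the authors deposited are linear ratios of each array to the probe set's median: over the 12 arrays the median log2 ratio of every probe set lay within 5e-07 of 0. Array medians of the ratio ran from 0.99 to 1.02. Precision rests on the array number, since signal over background is not held in the values.

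Log2 of each deposited ratio was fitted with limma 3.58.1 in R 4.3.3 (lmFit, eBayes, no covariate, no filter on low values, which the ratios do not allow). Plots used matplotlib 3.10.9. Names came from the platform annotation, updated through Entrez identifiers in RefSeq (GRCr8): 15097 had 1 symbol, 323 several and 11922 none there. A gene of several probe sets took its lowest-numbered one. The fit was tested on data simulated with each probe set's own spread, equal in every array, unlike the real arrays. It recovered 77% of changes of 0.5 on the log2 scale and 98% of changes of 1, with 7 false among 182 calls. Smaller changes were not simulated. The members, lists and alternatives were chosen with earlier results of these data known. Genes named were all members, up to 4 passing genes of each list by smallest p, landmark regulators and the genes most like Pdk4. Intervals of pair differences invert the exact test. A planned comparison of kinase proteins and of phosphorylation stretches was not run, as protein sequences were not used here. Alternatives were quantile normalization, median centring, array weights, robust eBayes, a replicate block, probe sets with 1 symbol, means of probe sets, stricter thresholds and arrays left out.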

Additional observations from a re-analysis of the deposited data

Results flagged for a closer look

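In 5 of 24 groups of 6 arrays, 1 array stood far from the others by Dixon's test, where chance gives about 1 in 20. These groups are not independent, since the probe sets share arrays and both Dlat probe sets read nearly the same values. Over all probe sets, 18.2% had such an array among the controls and 10.1% among the DEHP cultures. It was control replicate 5 in 15.8%, DEHP replicate 6 in 5.43% and DEHP replicate 5 in 2.81%. For Pdk3, control replicate 5 was at −0.51 (log2 ratio) and the other controls between −0.02 and 0.26. For Dlat, control replicate 5 was at −0.61 on the first probe set and −0.65 on the second, with the others between −0.21 and −0.0030 over both. For Pdp1, DEHP replicate 5 was at −0.10 and the others between −0.0067 and 0.05. For Pdp2, DEHP replicate 6 was at 0.47 and the others between −0.18 and 0.05.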

How the results depend on the processing

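In the 19 other normalizations, fits and array sets (20 for Dlat), Pdk4 (log2 fold 3.39 to 3.48), Pdk2 (0.82 to 0.93), Pdhx (0.20 to 0.28) and the first probe set of Dlat (0.29 to 0.41) passed as higher. With each array left out, 4 members passed as higher, with Dlat read from its first probe set. Read from the second, whose neighbours lie on the Dlat chromosome, Dlat did not pass and the count was 3 without control replicate 6 or DEHP replicate 1, 3 or 4. Between 0 and 1 member passed as lower, the 1 being Pdk3 without control replicate 5 (log2 folds of Pdk3 ran from −0.21 to −0.057). Against a minimum fold of 1.2, where 4.32% of all probe sets passed, 2 members passed as higher, and Dlat and Pdhx did not. The second probe set of Dlat ran from 0.27 to 0.40 with each array left out. Pdp1 was −0.022 after quantile normalization, −0.021 with array weights, −0.060 without control replicate 5 and DEHP replicate 6 together, and −0.059 to 0.052 with each array left out. Pdp2 was −0.041, −0.028, −0.13 and −0.085 to 0.046 in the same order. The difference of Pdp2 and Pdp1 was −0.018 after quantile normalization, −0.074 without both arrays and −0.086 to 0.032 with each left out. The difference of Pdk3 and Pdk1 was −0.24 after quantile normalization and −0.25 to −0.14 with each array left out, and that of Pdha1 and Pdhb −0.13 without both arrays, where it did not pass (adjusted exact p = 0.082), and −0.1967 to −0.14 with each left out. In cofactor supply, 2 to 4 genes rose and 0 to 1 fell with each array left out. Of the regulators, 1 fell after quantile normalization, with array weights, with the replicate block and without both arrays, and 0 to 1 with each left out. With each array left out, Pparg ran from −0.0053 to 0.041, Esrra from −0.0045 to 0.071 and Ppm1k from −0.026 to 0.029. The cause of these changes was not tested.

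Replicate numbers are shared by the groups. The deviations of same-numbered arrays correlated with r of 0.07 to 0.77, over 0.1 in 5 of 6 pairs and highest for replicate 5. In 3 of 6 pairs the best partner had the same number. Whether the numbers mark pairs of cultures is not settled by these values, and the main tests did not take them as pairs. With the replicate block 4 members passed as higher and 0 as lower; in this balanced design the block cannot move a fold. The number of arrays limits small differences, and the ratios cannot show which probe sets were near background.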

Other observations

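Correlating deviations from the group means in place of the log2 ratios gave other neighbours of Pdk4 over the 12 arrays. These were Champ1 (r = 0.94), Hsbp1 (r = 0.89), Clptm1 (r = 0.88), Borcs7 (r = 0.88) and Polr3gl (r = 0.87), of which Clptm1 passed as higher (log2 fold 0.36 ± 0.05) and Borcs7 as lower (−0.31 ± 0.05). The values are the highest of 14304 and are given as a description.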
